A study of Mus musculus with 14 samples.

Results

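The desmosome genes Dsp, Dsc2, Dsc3, Dsg2, Dsg3, Pkp1, Pkp2, Pkp3, Jup and Perp were followed by RNA-seq in mouse mammary gland epithelial cells. These 10 genes were chosen by name from the 23284 genes of each of the 2 expression tables. EpH4 is an established epithelial cell line, and EpRas is a derivative of it transformed with oncogenic H-Ras. Both lines were left untreated (0 ng/ml) or stimulated with 1 ng/ml TGF-β3 for 48 h, with 2 libraries for each of the 4 groups. A further 6 libraries, 1 per condition, came from EpRas cells that received a negative control siRNA (siNC) or either of 2 siRNA pairs that target the ETS factors Etv4 and Etv5 together, again left untreated or stimulated for 48 h. EpH4 cells were grown in 10% and EpRas cells in 4% fetal bovine serum, and there is 1 line of each kind, so that the transformation, the serum and the history of the line cannot be told apart. The study describes the 2 libraries of a group as biological replicates, and the p-values below measure the spread between such libraries.

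Desmosomes are junctions that anchor the keratin filaments of neighbouring epithelial cells to each other. Desmogleins (Dsg) and desmocollins (Dsc) are cadherins that bind across the intercellular gap, the armadillo proteins plakoglobin (Jup) and plakophilins (Pkp) bind their tails on the inside, and desmoplakin (Dsp) links this plaque to keratins. Perp is a membrane protein of desmosomes that is also a target of p53 and p63. TGF-β is known for inducing epithelial-mesenchymal transition (EMT), in which epithelial junctions are dismantled.

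Expression was given in FPKM, a count of fragments scaled to the exon length of the gene and to the size of the library. The number of reads is not given in the tables, but for genes with 1 transcription start each FPKM is a whole number of steps of 1 read. The largest relative depth read from these steps was 2.23 times the smallest among the untransfected libraries and 1.74 times among the siRNA libraries. The reads behind a library's value were 369 to 1470 for Dsp, 696 to 5914 for Pkp1, 201 to 794 for Pkp2, 309 to 1273 for Perp, 34 to 176 for Dsg2 and 1 to 64 for Dsc2 in the untransfected libraries. They could not be recovered for Jup, Pkp3 and Dsg3. Of 8 mammary epithelial markers, 7 reached 1 FPKM in EpH4 cells (Krt19 was listed at 0) and 8 in EpRas cells. Defining markers of immune (Ptprc and Itgam) and endothelial cells (Pecam1 and Tek) were listed at 0 in all untransfected libraries, as were the adipocyte markers Plin1 and Lep. Other genes of these lists were above 1 FPKM in some libraries. The macrophage genes Cd68 and Csf1r reached 2.75 and 6.23 FPKM in EpH4 and 7.13 and 1.53 FPKM in EpRas cells, and the adipocyte gene Fabp4 reached 8.13 and 2.54 FPKM.

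Of the 10 genes, 7 reached 5 FPKM in at least 1 untransfected library and were tested with limma among 9100 genes, with p-values adjusted by the Benjamini-Hochberg method. Dsc2, Dsc3 and Dsg3 stayed under this level in every library. Dsg2 reached it in TGF-β-treated EpH4 cells only, so that its passing the filter depended on the group in which it is highest. In untreated EpH4 cells the mean levels followed the order Perp, Pkp1, Jup, Pkp3, Pkp2, Dsp, Dsg2, Dsc2, Dsg3 and Dsc3. Perp (95.6 and 94.1 FPKM) did not overlap with Pkp1 (80.9 and 62.6 FPKM), whereas Pkp1 overlapped with Jup (59.5 and 70.2 FPKM). Pkp3, at 49.4 and 58.4 FPKM, lay just below both Jup libraries. In TGF-β-treated cells of both lines Pkp1 and Jup had the highest means and Perp no longer led, although the libraries of these 3 genes overlapped in EpRas cells.

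**Figure D1:**
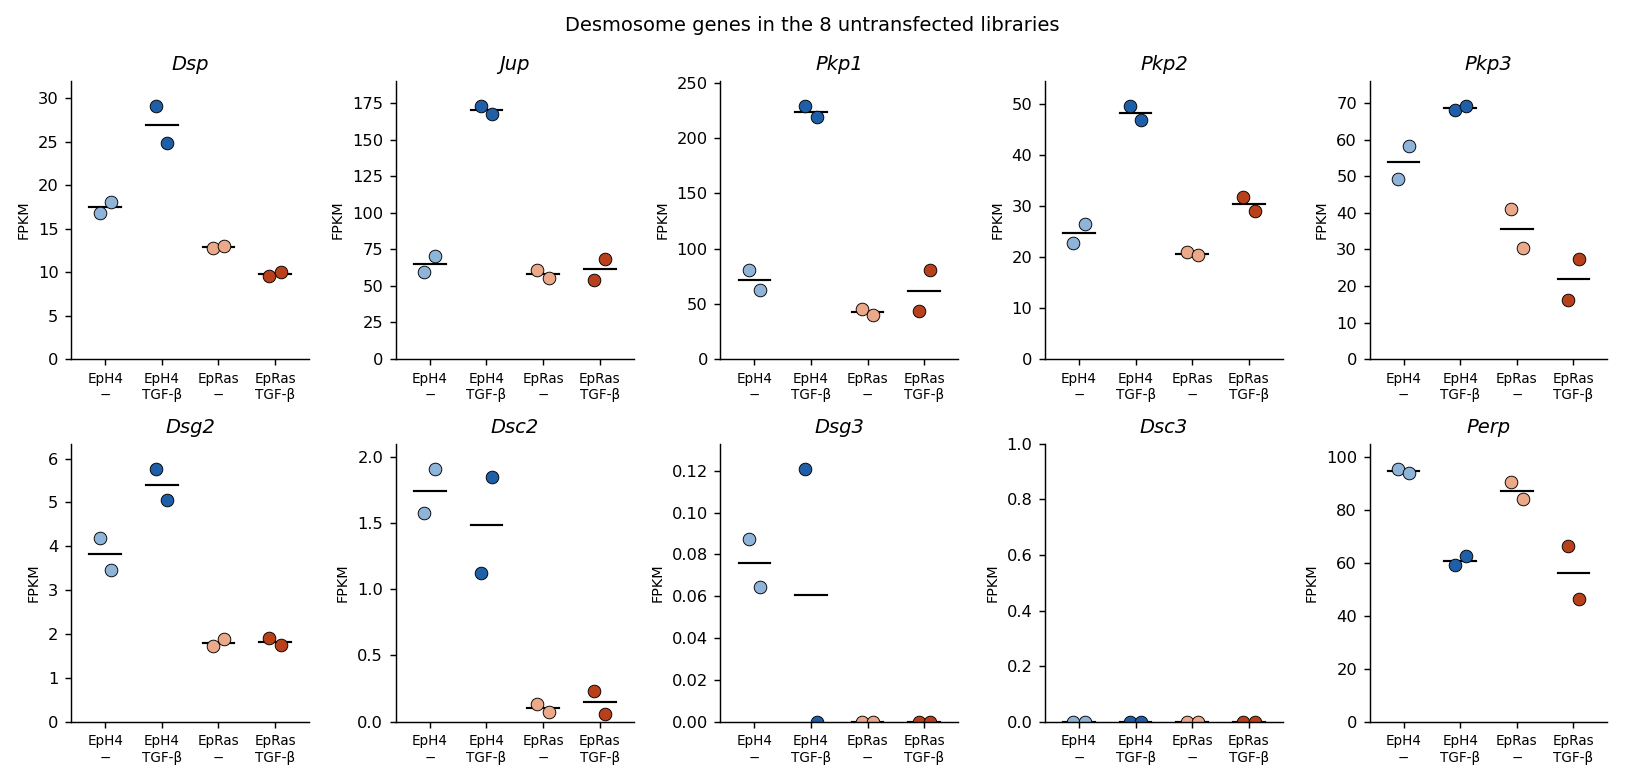
FPKM of each of the 10 desmosome genes (vertical axes, linear, each panel with its own range starting at 0) in the 8 untransfected libraries; each point is 1 library and each bar is the mean of the 2 libraries of a group. Jup, Pkp1 and Pkp2 were highest in both TGF-β-treated EpH4 libraries, Perp was lower in all treated than in all untreated libraries, and Dsc3 was listed at 0 throughout.

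Between the lines, more of the desmosome genes passed the test with TGF-β than without it. In treated cells 6 of the 7 tested genes (Dsp, Jup, Dsg2, Pkp1, Pkp2 and Pkp3) were lower in EpRas than in EpH4 cells (adjusted p under 0.05), where 12.3% of all genes were lower and 8.92% higher. Their log2 fold changes lay between -1.90 and -0.65, and the median of the 7 genes was -1.37 against -0.01 for all genes. In untreated cells 1 of 7 (Dsg2) was lower and 0 were higher, beside 9.11% and 8.45% of all genes, with a median of -0.41 against -0.00. Dsg2, counted in both states, passed the filter only through treated EpH4 cells. By limma without adjustment 3 of the 7 were under 0.05 in untreated cells, and 32.6% of all genes were. The EpRas libraries were both lower than either EpH4 library for 6 of the 7 genes in untreated cells, as for 30.4% of all genes.

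With TGF-β, in EpH4 cells 4 of the 7 genes rose (Jup, Pkp1, Pkp2 and Dsp) and 0 fell, beside 6.48% of all genes higher and 2.91% lower, and the median log2 fold change was 0.60 against -0.02 for all genes. The count rested on each of the EpH4 libraries: it was 1 (Jup) without EpH4 untreated replicate 1 or without either treated EpH4 replicate, and 2 (Jup and Pkp2) without EpH4 untreated replicate 2. The share of all genes called higher was also smaller in these fits, at 2.04 to 2.95% over these 4 fits. In EpRas cells limma called 0 of 7, beside 1.90% of all genes higher and 1.92% lower, with a median of 0.02. Without adjustment 4 of the 7 were under 0.05 in EpRas cells (Dsp, Pkp2, Pkp3 and Perp, 15.8% of all genes), and a Tukey-Kramer test of the FPKM, without adjustment over genes, gave 2 (Pkp2 and Perp), beside 6.96% of all genes.

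**Figure D2:**
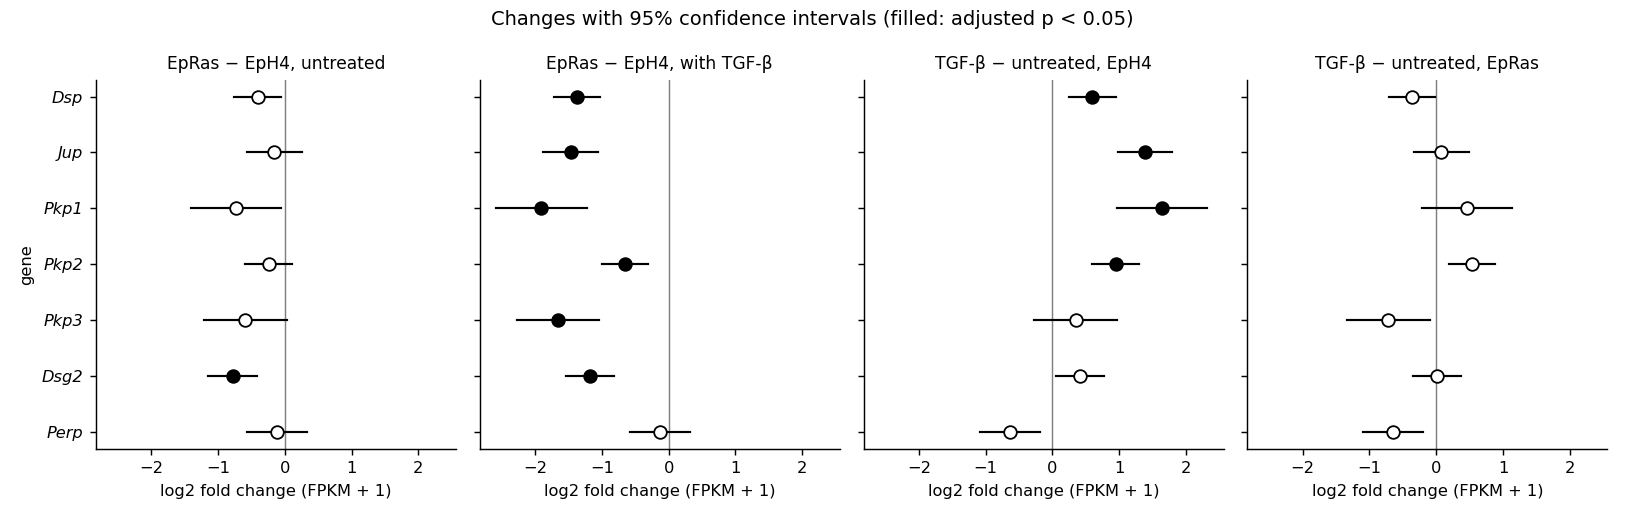
Log2 fold changes of FPKM + 1 (horizontal axes) of the 7 tested desmosome genes in 4 comparisons, with 95% confidence intervals from limma as lines; filled points are adjusted p-values under 0.05. The filled points of EpRas against EpH4 cells with TGF-β are all to the left of 0, those of TGF-β against untreated in EpH4 cells to the right, and there are none for TGF-β in EpRas cells.

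The desmosomal cadherins were the least abundant members. The genes Dsc3, Dsc2, Dsg3 and Dsg2 lie within 644 kb of chromosome 18 (mm10). Dsg2, the widely expressed desmoglein (chr18:20558074-20604521), was at 4.19 and 3.45 FPKM in untreated and 5.76 and 5.05 FPKM in treated EpH4 cells. EpRas cells held 1.72 and 1.88 FPKM untreated and 1.90 and 1.75 FPKM after treatment. All EpH4 libraries were thus above all EpRas libraries, and the treated EpH4 libraries were the highest. Dsg2 was lower in EpRas cells without TGF-β (log2 fold change -0.78, SE 0.15, adjusted p = 0.0139) and with it (-1.18, adjusted p = 0.00191). It was tested only because the treated EpH4 libraries, in which it is highest, passed the filter. With no filter the limma adjusted p was 0.0101 without and 0.00199 with TGF-β. The call without TGF-β was lost on leaving out EpH4 untreated replicate 1 (adjusted p = 0.0794), EpRas untreated replicate 1 (0.0801) or EpRas untreated replicate 2 (0.0600). It was also lost with log2(FPKM + 5), where the log2 fold change was -0.37 (adjusted p = 0.0564). The adjusted p ranged from 0.00806 to 0.0801 over the 16 alternatives in which Dsg2 was tested; it was under the filter with a mean of at least 10 FPKM and with only the 2 untreated groups. TGF-β gave log2 differences of 0.41 in EpH4 (adjusted p = 0.157) and 0.02 in EpRas cells (adjusted p = 0.976), and neither passed the test.

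Dsc2, a desmocollin of simple and stratified epithelia (chr18:20030633-20059554), was at 1.58 and 1.91 FPKM in untreated and 1.12 and 1.84 FPKM in treated EpH4 cells. In EpRas cells it was at 0.133 and 0.0713 FPKM without and 0.235 and 0.0606 FPKM with TGF-β. No EpRas library came near an EpH4 library. In reads, untreated EpH4 cells had 103 and EpRas cells 4 over both libraries, which with the depth gives a ratio of 19.0 (95% exact interval 7.22 to 71.2, counting error only), and treated cells had 69 and 6, a ratio of 9.77 (4.27 to 27.5). This gene was under the filter and has no limma test in the main analysis. In these bulk samples fewer cells with Dsc2 RNA and less of it per cell cannot be told apart. Dsg3, best known from stratified squamous epithelium, did not exceed 0.121 FPKM in EpH4 cells and was listed at 0 in all EpRas libraries of this table, and Dsc3 was listed at 0 in all 14 libraries of the series.

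Plakoglobin is the plaque protein that binds the cadherin tails and is shared with adherens junctions. Jup (chr11:100368958-100397763) was at 59.5 and 70.2 FPKM in untreated and 173 and 168 FPKM in treated EpH4 cells. The EpRas libraries were at 60.9 and 55.1 FPKM without and 54.4 and 68.7 FPKM with TGF-β. The treated EpH4 libraries stood apart from the other 6, which overlapped. Jup rose with TGF-β in EpH4 cells by 1.38 (log2, SE 0.17, adjusted p = 0.00337), which stayed called under every alternative tried (adjusted p up to 0.0466). The log2 difference with TGF-β in EpRas cells was 0.08 (95% interval -0.33 to 0.49, adjusted p = 0.885). Treated EpRas cells were lower than treated EpH4 cells by a log2 fold change of -1.46 (adjusted p = 0.00126), whereas the untreated lines differed by -0.16 (adjusted p = 0.589).

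Desmoplakin ties the plaque to keratin filaments. Dsp (chr13:38151294-38198577) was at 16.8 and 18.1 FPKM in untreated and 29.1 and 24.8 FPKM in treated EpH4 cells. In EpRas cells it was at 12.8 and 13.0 FPKM without and 9.53 and 10.0 FPKM with TGF-β. The 4 groups did not overlap, with treated EpH4 cells highest and treated EpRas cells lowest. Dsp was lower in EpRas than in EpH4 cells with TGF-β (log2 fold change -1.37, SE 0.15, adjusted p = 0.000763), and without TGF-β the difference was -0.41 (adjusted p = 0.104). Its rise with TGF-β in EpH4 cells (0.60) was close to the threshold, with an adjusted p of 0.0493 that ranged from 0.0284 to 0.339 over the alternatives. The call was lost under 11 of 18 alternatives. These were leaving out any 1 of the 4 EpH4 libraries (0.149 to 0.339) or either untreated EpRas library (0.0850 and 0.0874), the replicate number as a block (0.112) or crossed (0.0617), log2(FPKM + 0.1) (0.0552), and upper-quartile (0.0587) or quantile scaling (0.0541). In EpRas cells the difference with TGF-β was -0.37 (adjusted p = 0.292).

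The promoters of Dsp and Jup are shown because the study concerns ETS factors and these are the 2 of the 10 genes with an entry in the RefSeq promoter table used here (mouse GRCm38.p6), which runs from 250 bases before to 50 bases after the annotated start. Capitals mark GGAA (the ETS core) and CAGGTG (an E-box that Snail and Zeb factors can bind), found by a search of both strands. The Dsp sequence is chr13:38151044-38151343 on the plus strand and the Jup sequence is chr11:100397741-100398040 on the minus strand.
Dsp: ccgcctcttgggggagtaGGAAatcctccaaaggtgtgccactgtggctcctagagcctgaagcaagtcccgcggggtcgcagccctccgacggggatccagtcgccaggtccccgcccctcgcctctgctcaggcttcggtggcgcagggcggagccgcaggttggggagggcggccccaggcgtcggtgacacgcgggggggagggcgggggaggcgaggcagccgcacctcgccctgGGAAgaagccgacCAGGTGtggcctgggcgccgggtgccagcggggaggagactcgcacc
Jup: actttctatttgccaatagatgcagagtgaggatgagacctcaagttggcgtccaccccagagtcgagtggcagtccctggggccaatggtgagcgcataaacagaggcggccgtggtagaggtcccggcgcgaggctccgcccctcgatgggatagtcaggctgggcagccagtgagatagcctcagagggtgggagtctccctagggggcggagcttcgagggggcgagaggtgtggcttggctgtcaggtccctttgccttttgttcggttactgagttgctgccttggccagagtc
The Dsp window held GGAA at positions 19 and 241 and CAGGTG at position 254 from its 5′ end, and had 73% G and C. The Jup window held neither and had 60.7% G and C, where the median of all promoters was 52.7%. GGAA was present in 96.0% of the 32851 promoters of this length and CAGGTG in 20.2%. Neither window held the longer ETS motif CCGGAAG (which contains GGAA, 8.86% of promoters), the AP-1 motif TGANTCA (7.81%), the palindromic SMAD motif GTCTAGAC (0.213%) or TATAAA (13.6%). These are matches of letters and not sites of binding.

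Plakophilins join cadherin tails, plakoglobin and desmoplakin and enlarge the plaque. Pkp1, which is typical of stratified epithelia (chr1:135871395-135919207), was at 80.9 and 62.6 FPKM in untreated and 229 and 219 FPKM in treated EpH4 cells. The EpRas libraries were at 45.4 and 40.0 FPKM without and 43.1 and 80.7 FPKM with TGF-β. The treated EpH4 libraries were far above all others, and the treated EpRas libraries differed widely from each other, with replicate 1 among the untreated values and replicate 2 above both. Pkp1 rose in EpH4 cells by 1.64 (log2, SE 0.29, adjusted p = 0.0143), a call that was lost on leaving out any 1 of the 4 EpH4 libraries (adjusted p 0.0517 to 0.118). The log2 difference in EpRas cells, 0.46 (adjusted p = 0.514), became 0.02 without treated EpRas replicate 2 and 0.91 without treated replicate 1. Pkp1 was lower in treated EpRas than in treated EpH4 cells by -1.90 (adjusted p = 0.00378). Without TGF-β the difference was -0.73 (adjusted p = 0.131), and it was called when either treated EpRas library was left out of the fit (adjusted p 0.0258 and 0.0308).

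Pkp2, the plakophilin of simple epithelia and heart (chr16:16213318-16272712), was at 22.8 and 26.4 FPKM in untreated and 49.5 and 46.8 FPKM in treated EpH4 cells. In EpRas cells it was at 20.9 and 20.3 FPKM without and 31.6 and 29.0 FPKM with TGF-β. The treated libraries lay above the untreated ones in both lines. Pkp2 rose in EpH4 cells by 0.94 (log2, SE 0.15, adjusted p = 0.00899), which was not called without EpH4 untreated replicate 1 (0.0630), treated replicate 1 (0.103) or treated replicate 2 (0.0769). In EpRas cells the difference was 0.54 (95% interval 0.19 to 0.88, adjusted p = 0.119). It was lower in treated EpRas than in treated EpH4 cells by -0.65 (adjusted p = 0.0201, and 0.144 or 0.102 without treated EpH4 replicate 1 or 2, and 0.0593 with only the 2 groups compared).

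Pkp3, which is found in most desmosomes of epithelia (chr7:141078218-141090510), was at 49.4 and 58.4 FPKM in untreated and 68.2 and 69.2 FPKM in treated EpH4 cells. The EpRas libraries were at 40.9 and 30.5 FPKM without and 16.2 and 27.5 FPKM with TGF-β. Treated libraries lay above untreated ones in EpH4 cells and below them in EpRas cells. The difference between treated EpRas and EpH4 cells passed the test (log2 fold change -1.66, SE 0.26, adjusted p = 0.00459), and the difference between the untreated lines (-0.59, adjusted p = 0.171) did not, with -0.80 and -0.38 on leaving out EpRas untreated replicate 1 and 2. TGF-β gave 0.35 in EpH4 (adjusted p = 0.480) and -0.72 in EpRas cells (adjusted p = 0.245), and neither passed the test. The value in EpRas cells became -0.35 without treated replicate 1 and -1.08 without treated replicate 2, and that in EpH4 cells became 0.23 without untreated replicate 1.

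The plakophilins were also compared by their shares of their summed FPKM. Pkp1 held 42.4 to 52.9% of it in untreated and 65.4 to 66.0% in treated EpH4 cells, and 42.3 to 44.0% in untreated and 47.4 to 58.8% in treated EpRas cells. Pkp3 held 32.3 to 39.6% in untreated and 19.7 to 20.7% in treated EpH4 cells, and 33.6 to 38.2% and 17.8 to 20.0% in EpRas cells. The share of Pkp3 was lower in the treated libraries of both lines, while its level was higher in treated EpH4 and lower in treated EpRas libraries. The sum of the plakophilins was 335 to 346 FPKM in treated EpH4 cells and 90.9 to 137 FPKM in treated EpRas cells. These shares were not tested.

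**Figure D3:**
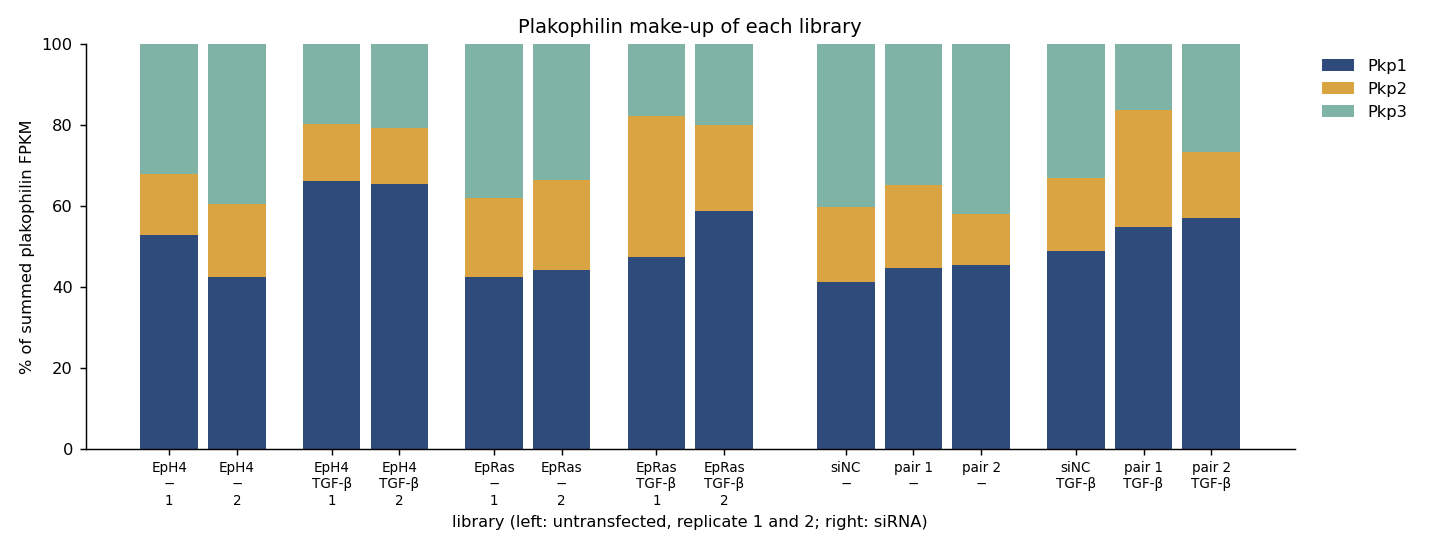
Share of each plakophilin in the summed FPKM of Pkp1, Pkp2 and Pkp3 (vertical axis, %) in each of the 14 libraries; each stacked bar is 1 library. In every TGF-β-treated library the share of Pkp3 is smaller than in the untreated libraries of the same line or transfection.

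Perp encodes a tetraspan protein in the membrane of desmosomes. Perp (chr10:18845020-18857073) was at 95.6 and 94.1 FPKM in untreated and 59.2 and 62.7 FPKM in treated EpH4 cells. EpRas cells held 90.7 and 84.3 FPKM untreated and 66.5 and 46.4 FPKM after treatment. All treated libraries lay below all untreated libraries, and the lines overlapped in the treated state. The log2 difference with TGF-β was -0.63 in EpH4 (SE 0.19, adjusted p = 0.0915) and -0.64 in EpRas cells (adjusted p = 0.147), and neither passed the test. In EpH4 cells the alternatives gave adjusted p-values of 0.0258 to 0.401, and 3 of them were under 0.05, namely 0.0268 and 0.0258 on leaving out treated EpRas replicate 1 and 2 and 0.0319 with only the 2 groups compared. In EpRas cells it ranged from 0.0389 to 0.480. The value there became -0.90 without treated replicate 1 (adjusted p = 0.0389) and -0.39 without treated replicate 2 (0.166). The lines differed by -0.12 without (adjusted p = 0.725) and -0.13 with TGF-β (adjusted p = 0.661), the latter turning to 0.12 without treated EpRas replicate 2.

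Whether the effect of TGF-β differed between the lines was tested as an interaction. None of the 7 genes passed it with limma (0 of 7, beside 0.176% of all genes higher and 0.626% lower), while 4 were under 0.05 without adjustment (Dsp, Jup, Pkp1 and Pkp3), as were 10.9% of all genes. All 7 estimates were below 0, that of Perp being -0.01 (95% interval -0.65 to 0.62). Their median was -0.96, against -0.03 for all genes, and the share of all genes below 0 was not counted. Several members varied together over the same libraries, so their signs are not independent. Jup had the largest, -1.31 (SE 0.25, adjusted p = 0.0783, range 0.0478 to 0.372), which was called without treated EpRas replicate 2 (0.0478) and with 5 in place of 1 added to FPKM (0.0492). Pkp1 followed with -1.18 (adjusted p = 0.355), Pkp3 with -1.07 (0.357) and Dsp with -0.96 (0.129). Without treated EpRas replicate 1 the value was -0.73 for Pkp1 and -0.70 for Pkp3, and without treated replicate 2 it was -1.62 and -1.43. The order of Jup and Pkp1 was that of the main fit and turned on single libraries. Jup was at -1.47 without treated EpRas replicate 2, and without EpH4 untreated replicate 1 Pkp1 was at -1.36 and Jup at -1.19. For Pkp2 (-0.41) and Dsg2 (-0.40) the 95% intervals reached from -0.90 to 0.08 and from -0.91 to 0.11.

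Some markers of other cells differed in level between these groups. The summed level of 7 basal or myoepithelial markers was 351 to 414 FPKM in untreated and 831 to 898 FPKM in treated EpH4 cells, and 105 to 117 and 64.8 to 67.4 FPKM in EpRas cells. Of that list 3 and 4 genes reached 1 FPKM in EpH4 and 2 in EpRas cells, and Krt5 did not exceed 0.0856 FPKM. The sum of 7 fibroblast markers was 22.7 to 26.8 FPKM in untreated and 222 to 247 FPKM in treated EpH4 cells, mostly Col1a1, with Dcn and Lum listed at 0. In EpRas cells it was 12.3 to 13.6 and 8.42 to 11.1 FPKM. The sum of the epithelial markers was 5605 to 6977 and 9566 to 10172 FPKM in EpH4 and 4298 to 5510 and 2663 to 4566 FPKM in EpRas cells. The sum of 6 immune markers was 1.81 to 2.09 FPKM in untreated and 6.52 to 8.49 FPKM in treated EpH4 cells, and 4.50 to 5.21 and 5.64 to 8.27 FPKM in EpRas cells. In the same untransfected libraries that of 4 adipocyte markers was 5.83 to 8.13 FPKM in untreated EpH4 cells and 0.342 to 2.54 FPKM in the other groups. The 4 endothelial markers there summed to at most 0.481 FPKM. The part of these markers in the differences above was not tested.

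Across the 8 untransfected libraries several members varied together. Pearson's r of log2(FPKM + 1) was 0.95 for Pkp1 and Jup, 0.94 for Dsp and Dsg2, 0.92 for Dsp and Pkp3 and 0.90 for Pkp2 and Jup. Perp gave -0.64 to 0.19 with the other 6. The libraries are 2 each of only 4 groups, so that these values describe the group means. Among the tested genes most like a member were Pstpip1 for Dsp (0.99, and also Cdh1, which encodes E-cadherin, at 0.99), Map3k14 for Pkp1 (0.98), Palld for Pkp2 (0.99), Foxo6 for Pkp3 (0.98), Nfatc2 for Jup (0.99) and Nr3c1 for Perp (0.97).

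The knockdown of Etv4 and Etv5 was examined in the 6 siRNA libraries, which come from a separate table with 1 library per condition, and no test was made on them. Etv4 and Etv5 were left at 14.2 to 48.5% of siNC. Of the same 7 members, 6 were lower with both siRNA pairs than with siNC in untreated cells and 5 in TGF-β-treated cells, beside 36.8% and 35.0% of the 9094 genes. Both pairs are set against the same siNC library in each state, so their agreement is not independent. By the rule of at least 1.5-fold (of FPKM + 1) with both pairs, 0 of 7 were past it in untreated cells (7.41% of all genes lower, 6.74% higher). In treated cells 1 of 7 was lower, Dsg2 (6.87% of all genes lower, 5.65% higher), which reached the filter of 5 FPKM in siNC with TGF-β only. For each of the 7 members the interval that Cuffdiff gives for either pair overlapped that of siNC. Marker sums of other cells also differed between these libraries. Without TGF-β the 7 basal or myoepithelial markers summed to 110 FPKM with siNC, 261 with pair 1 and 365 with pair 2, and with TGF-β to 152, 420 and 260 FPKM, with Krt14 the highest of the list in each library. The 7 fibroblast markers summed to 5.50, 25.7 and 16.6 FPKM without and 11.7, 43.9 and 22.4 FPKM with TGF-β in the same order. The 6 immune markers were at 6.48, 3.31 and 5.00 FPKM without and 11.5, 5.10 and 6.99 FPKM with TGF-β. The endothelial markers reached 2.01 FPKM with siNC and TGF-β (mostly Cdh5) and at most 0.585 FPKM elsewhere, and the adipocyte markers at most 1.94 FPKM. The 8 epithelial markers summed to 4572 to 5971 FPKM. The part of these markers in the members' values was not tested.

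Dsg2 was at 4.31 FPKM with siNC, 2.83 with pair 1 and 3.29 with pair 2 in untreated cells, and at 6.14, 3.07 and 3.66 FPKM in treated cells. Jup was at 105, 71.9 and 81.1 FPKM in untreated and at 146, 78.3 and 129 FPKM in treated cells. Pkp3 was at 72.2, 48.7 and 62.3 FPKM in untreated and at 73.9, 32.1 and 53.8 FPKM in treated cells. In these genes both pairs lay below siNC in both states, and in treated cells pair 1 left 50.0% of siNC for Dsg2, 53.6% for Jup and 43.5% for Pkp3, against 59.6%, 88.1% and 72.8% with pair 2.

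Dsp was at 25.0, 23.1 and 22.0 FPKM in untreated and at 32.0, 29.9 and 15.5 FPKM in treated cells. Pkp2 was at 33.4, 28.5 and 18.6 FPKM in untreated and at 40.5, 56.6 and 32.5 FPKM in treated cells. For Dsp only pair 2 with TGF-β stood apart, and for Pkp2 the pairs lay on opposite sides of siNC in treated cells. Pkp1 stayed between 84.8 and 105% of siNC with both pairs, at 73.5, 62.4 and 67.5 FPKM without and 109, 107 and 115 FPKM with TGF-β. Dsc2 had 2 to 17 reads in each of these libraries, Dsg3 was at 0 to 0.271 FPKM, and no order can be read from either.

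**Figure D4:**
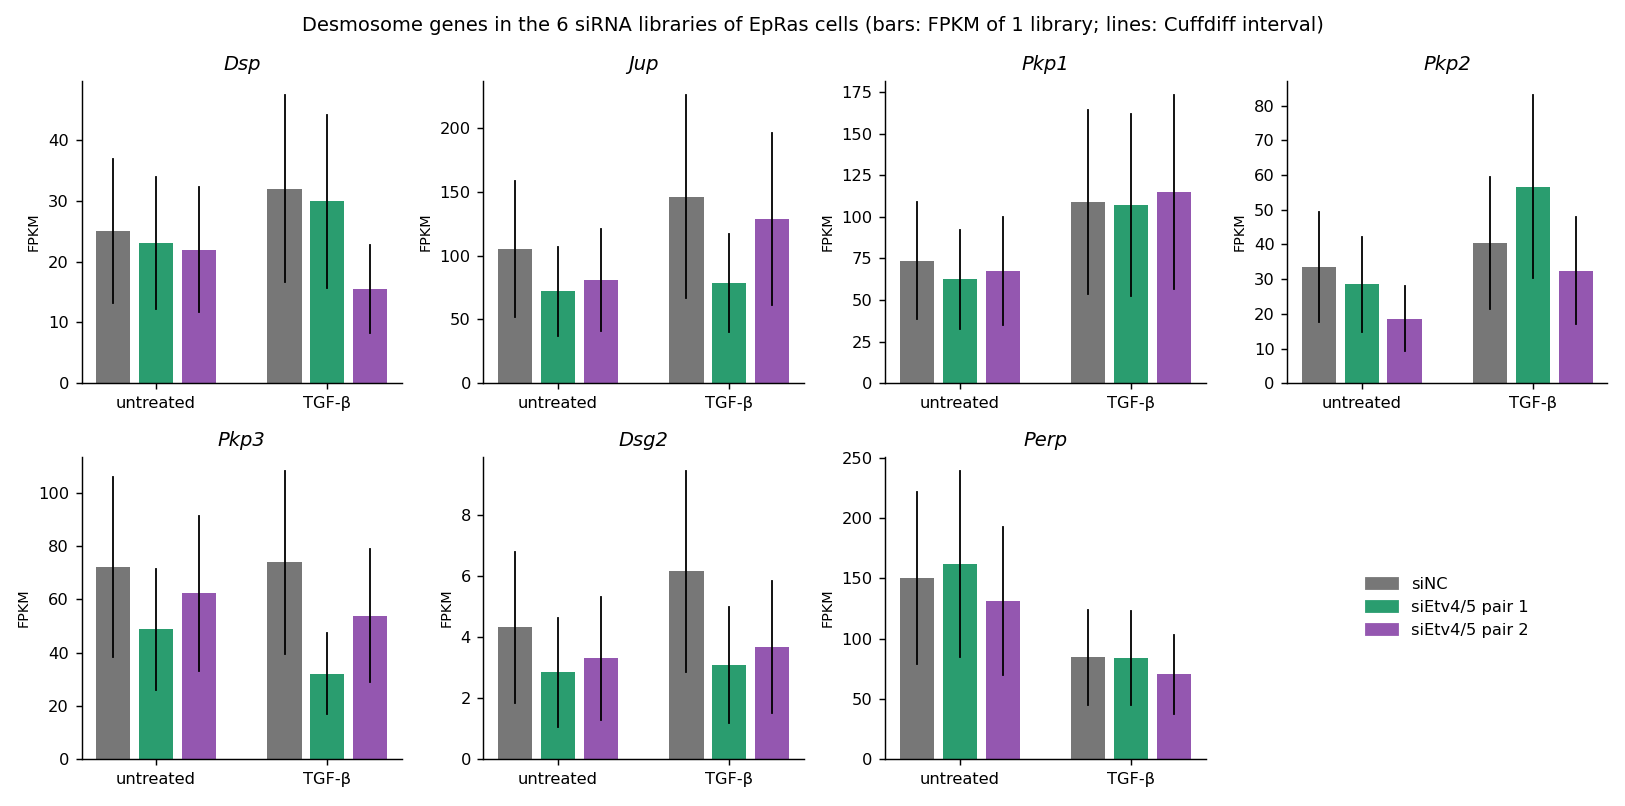
FPKM (vertical axes, linear from 0, each panel with its own range) of the 7 tested desmosome genes in EpRas cells transfected with siNC or an siRNA pair against Etv4 and Etv5; each bar is 1 library and each line the interval Cuffdiff gives for it. All intervals overlap within a treatment state, and Perp is the member with lower bars under TGF-β in all 3 transfections.

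With TGF-β, Perp was at 84.3, 83.7 and 70.1 FPKM with siNC, pair 1 and pair 2, and without it at 150, 162 and 131 FPKM. Its treated level was 0.561, 0.517 and 0.535 times the untreated one, which made it the 1 member of 7 past 1.5-fold in all 3 transfections (1.99% of all genes lower, 3.14% higher). In untransfected EpRas cells the ratio of the means was 0.645. Pkp1 was higher with TGF-β by ratios of 1.48, 1.72 and 1.70 and Pkp2 by 1.21, 1.99 and 1.75, each short of the rule in siNC. Jup had ratios of 1.39, 1.09 and 1.59 and Dsg2 of 1.43, 1.08 and 1.11. Dsp had 1.28, 1.30 and 0.706 and Pkp3 1.02, 0.659 and 0.864, so that the direction was not the same in all 3 transfections. The ratio of the means in untransfected EpRas cells was 0.758 for Dsp and 0.611 for Pkp3.

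Genes that work next to the members were counted in lists chosen by function. Of 8 other desmosomal and plaque genes, 3 were tested. Envoplakin (Evpl), a plaque relative of desmoplakin, was lower in EpRas cells without (log2 fold change -2.04) and with TGF-β (-1.90), and periplakin (Ppl) fell with TGF-β in EpH4 (-1.85) and EpRas cells (-2.45). Both genes passed the filter of 5 FPKM only through the groups in which they are higher. Of 7 tested keratins, the filaments that desmosomes hold, 1 was higher and 3 lower in untreated EpRas than EpH4 cells, 1 higher and 4 lower with TGF-β, 3 rose with TGF-β in EpH4 and 2 fell in EpRas cells. The shares of all genes that these counts stand beside are 8.45% higher and 9.11% lower in untreated EpRas cells, 8.92% and 12.3% in treated ones, 6.48% higher with TGF-β in EpH4 and 1.92% lower in EpRas cells, and they apply to the next lists as well. Among the keratins called, Krt19 passed the filter through EpRas cells only (listed at 0 in EpH4 cells), Krt17 through EpH4 cells only and Krt16 through treated EpH4 cells only, in each case the groups in which they are highest. Krt14 passed each of these tests and the interaction (-1.98, adjusted p = 0.0127), rising from a mean of 356 to 817 FPKM in EpH4 cells and falling from 109 to 63.4 FPKM in EpRas cells. By limma 2 of the 7 keratins were lower for the interaction, Krt14 and Krt7 (-1.87, adjusted p = 0.0491), beside 0.626% of all genes. Of 7 tested adherens junction genes, 3 were lower in untreated and 4 in treated EpRas cells and 2 rose with TGF-β in EpH4 cells (Pvrl1 and Cdh1). Of 5 tested hemidesmosome genes, which bind cells to the matrix, 3 were higher in untreated EpRas than EpH4 cells (Itga6 1.28, Plec 0.96 and Itgb4 0.77) and 1 with TGF-β (Itga6), and 1 rose with TGF-β in EpH4 cells (Itgb4).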

How the data were processed

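Directional libraries of bead-purified mRNA were sequenced by the authors on an Ion Proton. Per the labels and the submitters' processing notes TopHat2 2.0.11 with Bowtie2 2.2.2.2, Cufflinks 2.2.0 with Cuffdiff and mm10 were used. The 2 deposited tables give FPKM for every gene in each library, and the bounds of Cuffdiff's interval in FPKM as well. Untransfected and siRNA libraries were quantified separately, so values were compared within a table only. FPKM divides by the total of a library, so an increase of a few abundant genes lowers the others. No per-sample column was left unused (0).

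Genes with an OK status and a maximum of at least 5 FPKM were tested with limma 3.58.1 in R 4.3.3 on log2(FPKM + 1), with 1 mean per group over the 8 untransfected libraries and without a block. The Benjamini-Hochberg adjustment ran over all 9100 genes. Fold changes on this scale understate those of low genes. Data were simulated for untreated EpRas against EpH4 cells (8365 genes), with the same spread for every gene. Changes were placed only in genes of higher mean level. Of these, 91 of 95 genes changed by 1 and 105 of 105 changed by 2 (log2) were called, with 8 of 8165 unchanged genes. The members differ in spread and Dsg2 is of low level, so these rates are not those of the members. Reads were recovered from the steps of FPKM, whole within 0.05 reads, for 6 members. The siRNA libraries were compared by a 1.5-fold rule on FPKM + 1. Deviations of libraries with the same replicate number correlated at -0.35 to 0.08 between groups. The sign of such a value depends on how the libraries are numbered, so it cannot show whether samples were paired. Alternatives were another number added, other filters and scalings, a variance trend, a replicate block, fewer groups, the Tukey-Kramer test and leaving out each library. Gene positions are those of GENCODE on mm10, and motifs were searched with Python 3.11.15.

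All 10 members were named with their values, and of each list the genes past the threshold, at most 4 per comparison, by size. The members and the lists (other plaque genes, keratins, adherens junction, hemidesmosome, epithelial and EMT transcription factors, and markers of epithelial, basal, fibroblast, immune, endothelial and adipocyte cells) were chosen with earlier results of these data known.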

Additional observations from a re-analysis of the deposited data

Results flagged for a closer look

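Dsp and Pkp3 are given here because every TGF-β-treated EpH4 library lay above the untreated EpH4 libraries while every treated EpRas library lay below the untreated EpRas libraries. The share of all genes with this pattern was not counted. The estimates below come from the same values that picked these genes, and so are no separate evidence for the pattern. The effect of TGF-β in EpRas minus that in EpH4 cells was -0.96 for Dsp (log2, 95% interval -1.45 to -0.47) and -1.07 for Pkp3 (-1.94 to -0.19). By the interaction term in limma the adjusted p was 0.129 for Dsp (range over the alternatives 0.0756 to 0.571) and 0.357 for Pkp3 (0.0976 to 0.859), so neither passed the test. The value of Pkp3 was -0.70 without treated EpRas replicate 1 and -1.43 without treated replicate 2. In siNC-transfected EpRas cells, which are in the other table, the treated level was 1.28 times the untreated one for Dsp and 1.02 times for Pkp3.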

How the results depend on the processing

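Of 616 values of single members under alternatives, 583 kept their side of the threshold, 25 lost a call and 8 gained one. The sign differed from the main value in 9, none of them called. Leaving out 1 library moved the uncalled log2 differences of Jup to between -0.27 and -0.04 between the untreated lines and to between -0.09 and 0.24 for TGF-β in EpRas cells, and that of Perp between the treated lines to between -0.38 and 0.12. The count of members called between the untreated lines (1) became 0 with log2(FPKM + 5). It was also 0 with a mean of at least 10 FPKM and with only the 2 groups compared, where Dsg2 was under the filter and not tested, and 2 without a filter and with the Tukey-Kramer test (Dsc2 added in both). Between the treated lines it was 5 with a mean of at least 10 FPKM (Dsg2 not tested) and with only the 2 groups compared (Pkp2 lost). It was 7 there without a filter and with the Tukey-Kramer test, in place of 6. For TGF-β in EpH4 cells the count, taken in either direction, was 3 with log2(FPKM + 0.1), both other scalings and both blocks, in place of 4. It was 5 with only the 2 groups compared and 6 with the Tukey-Kramer test, both counts including Perp, which was lower. For TGF-β in EpRas cells it was 2 with the Tukey-Kramer test, and for the interaction 1 with log2(FPKM + 5), in place of 0. Leaving out 1 library gave 0 to 2 for the untreated lines, 5 to 6 for the treated lines, 1 to 5 for TGF-β in EpH4 cells, 0 to 1 in EpRas cells and 0 to 1 for the interaction; the lone library of a group was then assumed to vary like the other groups. In the siRNA libraries the count with both pairs and TGF-β (1) was 0 with FPKM + 5, 0 at 2-fold and 2 with the mean of the pairs, and the count for TGF-β in all 3 transfections (1) was 0 at 2-fold. Of all genes the Tukey-Kramer test gave 16.2% between the untreated lines, 18.7% between the treated lines, 13.1% for TGF-β in EpH4 and 6.96% in EpRas cells. The cause of these shifts was not tested.

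With the replicate block, 1 member was called between the untreated lines, 6 between the treated lines, 3 for TGF-β in EpH4 cells (Dsp was lost), 0 in EpRas cells and 0 for the interaction; over all genes it moved the calls for TGF-β from 855 to 547 in EpH4 and from 348 to 222 in EpRas cells and those of the interaction from 73 to 31. A block with the numbers of the untreated EpRas libraries exchanged, chosen after seeing the data because the correlation with the treated EpRas libraries was -0.35, called 872 genes for TGF-β in EpH4 and 363 in EpRas cells. Of the other fits, a mean of at least 10 FPKM (fewer genes tested) called 880, 1092, 559, 225 and 24 genes in place of 1598, 1935, 855, 348 and 73, no filter called 117 and the variance trend 45 for the interaction, and the fit of only the 2 groups called 85 for TGF-β in EpRas cells. Leaving out 1 library also moved the number and share of all genes called, in every comparison.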

Other observations

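Transcription factors of epithelial identity and of EMT were counted beside the junction genes. Of 7 tested epithelial factors, 5 were lower and 1 higher in EpRas than in EpH4 cells both without and with TGF-β, and 2 fell with TGF-β in each line. Of all genes 9.11% and 12.3% were lower and 8.45% and 8.92% higher in EpRas cells without and with TGF-β, and 2.91% fell with TGF-β in EpH4 and 1.92% in EpRas cells. Trp63, which encodes the p63 factor of basal epithelium, had a mean of 7.98 FPKM in untreated EpH4 and 0.0984 FPKM in untreated EpRas cells (log2 fold change -3.03, limma adjusted p = 4.11e-05), and passed the filter of 5 FPKM through EpH4 cells only. Grhl2, a factor of epithelial junction genes, was lower in untreated EpRas cells (-1.22, adjusted p = 0.00386), as was Elf3 (-1.28, adjusted p = 0.00259). The higher factor was outside the 4 largest changes both without and with TGF-β, and was therefore not named. Klf4 fell with TGF-β in EpH4 (-1.10, from a mean of 14.3 to 6.16 FPKM) and EpRas cells (-1.66, from 27.2 to 8.17 FPKM). Its untreated mean was thus higher in EpRas than in EpH4 cells, unlike those of Trp63, Grhl2 and Elf3.

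Of 6 EMT factors 3 were tested. Snai1 rose with TGF-β in EpH4 cells, from a mean of 9.87 to 32.0 FPKM (1.64, adjusted p = 0.00909), beside 6.48% of all genes. Twist2 passed the filter of 5 FPKM through 1 untreated EpH4 library only (replicate 2). It had means of 5.11 FPKM in untreated and 3.35 FPKM in treated EpH4 cells, was at 0.387 FPKM in untreated EpRas cells and was listed at 0 in treated ones. Twist1 was higher in treated EpRas than in treated EpH4 cells (0.68, adjusted p = 0.0485).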
